A study of Mus musculus with 69 samples.

Results

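At 144 h, the end of the gastruloid time course, the 2 wild-type clones of WT+WT mosaic gastruloids were not alike. WT–mCherry cells had more RNA of the imprinted genes Mest, Nnat, Plagl1 and Peg3, which are paternally expressed, and H19, which is maternally expressed, of most Hox and somite genes, and of many neural progenitor and retinoic acid pathway genes. WT–emiRFP cells had more RNA of the imprinted genes Grb10 and Zim1, which are maternally expressed, and Igf2, which is paternally expressed, of most pluripotency genes, and of many germ cell, stress response and glycolysis genes. Of the 18 imprinted genes that differed, 13 differed the same way between the clones as mES cells. With all libraries, the clone differences of Hoxb9, Meox1, Cdh2, Vim and Crabp1 were larger at 144 h than at 0 h and at 120 h. Of these calls only that of Vim against 0 h held with each replicate left out in turn. In mES cells the median log2 clone difference was already 0.56 for Hox genes and 0.61 for presomitic mesoderm genes, against 1.07 and 0.62 at 144 h. For somite genes it was 0.12, against 1.22.

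The comparison took the 3 WT–mCherry and the 3 WT–emiRFP libraries of WT+WT gastruloids at 144 h, 6 of the 69 bulk RNA libraries of the series, and all genes. Both clones are E14tg2A mouse embryonic stem (mES) cells of genotype WT. Each is a single clone with its own randomly integrated reporter, H2B–mCherry driven by the EF1α promoter in WT–mCherry and H2B–emiRFP driven by the CAG promoter in WT–emiRFP, so that clone, reporter and promoter cannot be told apart. The 2 clones were aggregated together, given a CHIR pulse from 48 to 72 h, grown on in N2B27 medium and separated by FACS, and their purity after sorting was not checked. Another 6 groups of 3 libraries were used beside them. WT–mCherry and WT–emiRFP mES cells at 0 h were the same clones kept apart in serum and LIF. WT–mCherry cells and p53KO–emiRFP cells at 144 h came from WT+p53KO gastruloids, and p53KO–emiRFP is a Trp53 frameshift clone derived from WT–emiRFP. WT–mCherry and WT–emiRFP cells of WT+WT gastruloids at 120 h were the nearest earlier time point.

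Gastruloids are aggregates of mES cells that, after a pulse of Wnt activation, lose pluripotency, elongate along an anterior to posterior axis and form derivatives of the germ layers, such as somitic mesoderm, spinal cord-like neural tissue, endothelium and gut endoderm. Hox genes are switched on in the order of their position in each cluster and mark position along the axis. Imprinted genes are transcribed mainly from the maternal or the paternal copy, because DNA methylation set in the germ line differs between the copies, and these marks are known to be altered in some mES cell lines on prolonged culture.

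Libraries were deep and alike. To 6 digits, WT–mCherry libraries held 48661400 to 63367200 counts (median 55194800) and WT–emiRFP libraries 47397800 to 57893500 (median 53098700). Normalized counts below are counts divided by a median-of-ratios size factor, and a fold change is WT–mCherry minus WT–emiRFP on the log2 scale, from the edgeR quasi-likelihood fit of the 12 libraries of 144 h, with its standard error (SE) and its Benjamini-Hochberg adjusted p over all genes tested. Over the 14346 genes whose mean count reached 50, log2 normalized counts correlated at 0.991 to 0.996 within WT–mCherry, 0.994 to 0.996 within WT–emiRFP and 0.975 to 0.990 between the clones, as a description across genes. Trp53, the gene disrupted in p53KO–emiRFP, had 1797, 1506 and 1559.5 normalized counts in the 3 p53KO–emiRFP libraries, 13902, 14785 and 15145 in the WT–mCherry cells beside them, 15975, 17254 and 17033 in WT–mCherry and 19869, 18455 and 20019 in WT–emiRFP cells of WT+WT gastruloids. The low values stood with the p53KO label. Between the wild-type clones Trp53 was lower in WT–mCherry, at −0.22 ± 0.07 (SE, adjusted p = 0.0287), a call lost with TMM scaling (adjusted p = 0.0545) and without any of 4 single libraries, with adjusted p of up to 0.121.

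A marker of the emiRFP lineage was measured in the WT–mCherry libraries. H2bc14, a histone H2B gene, had 10517, 9952 and 9353 normalized counts in WT–emiRFP mES cells and 7.32, 8.21 and 6.2 in WT–mCherry mES cells. At 144 h it had 6438, 7335 and 6112 in WT–emiRFP and 136, 14 and 104 in WT–mCherry cells, which is 2.12, 0.191 and 1.70% of the same-numbered WT–emiRFP library. In WT–mCherry cells beside p53KO cells this share was 16.9, 2.39 and 9.23%. With emiRFP RNA of these shares subtracted, 4743 genes differed between the wild-type clones in place of 4620. Of these 2394 were higher and 2349 lower in WT–mCherry, in place of 2521 and 2099. RNA of mCherry cells in the WT–emiRFP libraries was not measured, although the paper reports that emiRFP cells took up fluorescent material of mCherry neighbours. H2bc7, H2bc3 and H2bc21 followed the same split and, with H2bc14, were the 4 lowest values among named genes, with fold changes of −6.41 ± 0.47, −4.82 ± 0.27, −3.82 ± 0.35 and −6.34 ± 0.59 (SE, adjusted p = 5.69e-06, 3.6e-07, 3.17e-05 and 3.78e-05). Near-identical H2B genes share reads with each other, and both reporters encode H2B, so counts of single H2B genes are uncertain. Of the 12 H2B genes tested 5 were lower, H2bc4 the fifth of them, and 1, H2bu2, higher in WT–mCherry, against 10.8% and 13.0% of all genes. H2bc4 (adjusted p of up to 0.0998) and H2bu2 (adjusted p of up to 0.146) did not pass when 1 replicate was left out of all groups.

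Of 19431 genes tested, 4620 differed between the clones (23.8%), 2521 higher in WT–mCherry (13.0%) and 2099 lower (10.8%). The median change of all genes was −0.01. With the replicate number as a block, which pairs the clones sorted from the same experiment, 3377 were higher (17.4%) and 3201 lower (16.5%). Of the 4620 genes 538 were higher and 150 lower by at least 1 on the log2 scale. Without 1 library the total ranged from 3049, without WT–mCherry replicate 1, to 4657, without WT–mCherry replicate 2, and it was 2176 without replicate 3 of all groups. The medians of the 19 autosomes lay between −0.05 and 0.02 and that of the X chromosome was 0.05.

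Imprinted genes were the 4 highest of the named genes. Of 29 tested, 15 were higher and 3 lower in WT–mCherry, against the 13.0% and 10.8% of all genes (18 higher and 5 lower with the block), with a median of 0.36. Mest, a paternally expressed gene of the hydrolase family on chromosome 6 (GRCm38, 30723547 to 30748465, plus strand), had 65889, 56699 and 78645 normalized counts in WT–mCherry and 11294, 7596 and 7920.2 in WT–emiRFP cells. The groups were far apart, and the change was 2.91 ± 0.14 (SE, adjusted p = 9.84e-08). H19, the maternally expressed long noncoding RNA of the H19–Igf2 domain on chromosome 7 (142575529 to 142578143, minus strand), had 44706, 43683 and 52612 in WT–mCherry and 8118, 7243 and 6181 in WT–emiRFP, a change of 2.71 ± 0.13 (SE, adjusted p = 9.84e-08). Nnat, which encodes the membrane proteolipid neuronatin on chromosome 2 (157560078 to 157562522, plus strand), had 5415, 4247 and 7145 against 1201, 895 and 944, a change of 2.47 ± 0.17 (SE, adjusted p = 3.43e-06). Plagl1, a zinc finger transcription factor on chromosome 10 (13060504 to 13131694, plus strand), had 4742, 4504 and 5763 against 879.7, 898 and 975, a change of 2.45 ± 0.11 (SE, adjusted p = 9.84e-08). For these 4 genes the lowest WT–mCherry library was above the highest WT–emiRFP library.

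Grb10, a growth factor receptor adaptor on chromosome 11 (11930508 to 12038683, minus strand) that is maternally expressed in most tissues, went the other way. It had 1635, 1119.8 and 1407 normalized counts in WT–mCherry and 10374, 9919.8 and 9877 in WT–emiRFP, a change of −2.86 ± 0.36 (SE, adjusted p = 0.000149). Within the Peg3 domain on proximal chromosome 7 the genes divided. Peg3 (6703892 to 6730431) and Usp29 (6730578 to 6967219), paternally expressed neighbours, were higher in WT–mCherry by 1.58 ± 0.17 (SE, adjusted p = 8.14e-05) and 1.65 ± 0.19 (SE, adjusted p = 0.000101). Zim1 (6671269 to 6696450), their maternally expressed neighbour, was lower, with 119, 64.5 and 88.6 against 394, 353 and 457, a change of −2.15 ± 0.24 (SE, adjusted p = 8.23e-05). In the H19–Igf2 domain, H19 was higher while Igf2, the paternally expressed insulin-like growth factor (142650766 to 142666816), was lower, at −0.84 ± 0.17 (SE, adjusted p = 0.00335), with 988, 1054 and 1132 against 1899, 2127 and 1655. The libraries of the clones did not overlap for any of these 6 genes.

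The other called imprinted genes were all higher in WT–mCherry. Nap1l5 rose by 1.78 ± 0.32, Asb4 by 1.14 ± 0.27, Gnas by 0.99 ± 0.14, Zdbf2 by 0.97 ± 0.13, Ndn by 0.97 ± 0.11, Airn by 0.96 ± 0.21, Magel2 by 0.86 ± 0.16, Rian by 0.51 ± 0.08 and Sgce by 0.36 ± 0.08 (SE). Airn lies antisense to Igf2r, and Igf2r itself had −0.11 ± 0.07. Of the noncoding RNAs of the Dlk1–Dio3 domain, Meg3 and Mirg, at 0.22 ± 0.11 and 0.31 ± 0.13, passed the test with the block alone (adjusted p = 0.0296 and 0.0036). Dlk1, listed here with the Notch pathway, was higher by 1.37 ± 0.26 (SE, adjusted p = 0.00201). Cdkn1c, an imprinted inhibitor of cyclin-dependent kinases, was higher by 0.98 ± 0.15 (SE, adjusted p = 0.000589). Kcnq1ot1, Inpp5f, Dio3, Ascl2 and Phlda2 did not pass the test in either fit. Airn (adjusted p of up to 0.0596), Asb4 (adjusted p of up to 0.0599), Dlk1 (adjusted p of up to 0.0666) and Sgce (adjusted p of up to 0.0949) did not pass when 1 replicate was left out of all groups.

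**Figure D1:**
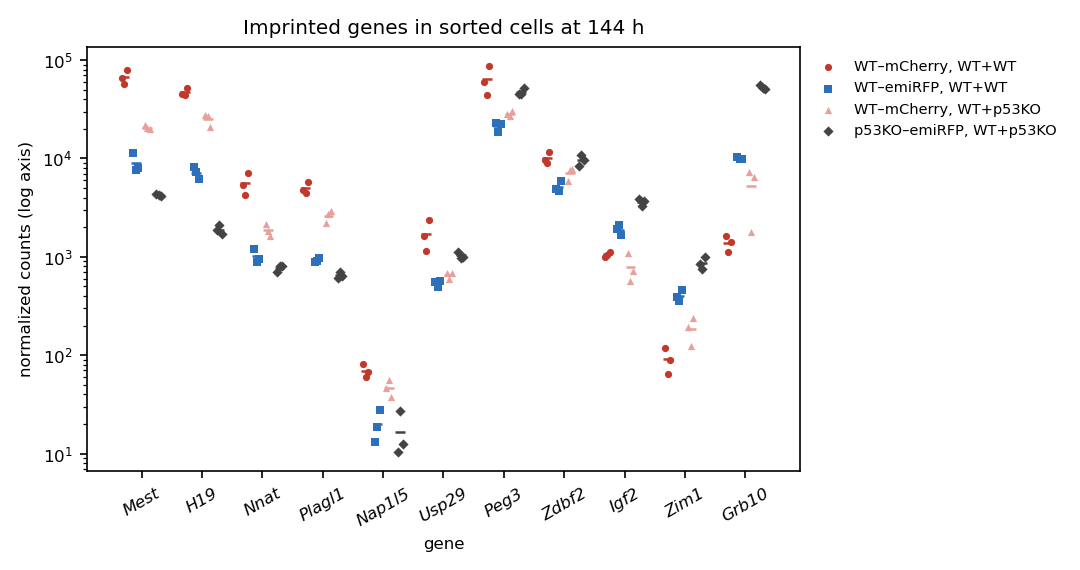
Normalized counts (log axis) of 11 imprinted genes in the 4 sorted populations of 144 h. Each point is a library and each bar the mean of 3. In WT+WT gastruloids the WT–mCherry points of Mest, H19, Nnat and Plagl1 sit above the WT–emiRFP points and those of Grb10 and Zim1 below them.

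Promoter sequences of imprinted genes that led the comparison are shown with the hexamer TGCCGC, the core recognized by the imprint-maintaining zinc finger protein ZFP57, in capitals where it stands on either strand (as TGCCGC or GCGGCA). Sequences are from RefSeq on GRCm38.p6, from 250 bases before to 50 after a transcript start, 5′ to 3′ in the direction of the gene. Mest, whose 3 starts all lie inside the annotated gene, is shown at chr6:30737800-30738099 (plus strand), Nap1l5 at chr6:58907077-58907376 (minus), Nnat at chr2:157559828-157560127 (plus), Plagl1 at chr10:13090582-13090881 (plus) and Grb10 for both starts, at chr11:12037371-12037670 and chr11:12027922-12028221 (minus). No sequence of H19 was used here.
Mest: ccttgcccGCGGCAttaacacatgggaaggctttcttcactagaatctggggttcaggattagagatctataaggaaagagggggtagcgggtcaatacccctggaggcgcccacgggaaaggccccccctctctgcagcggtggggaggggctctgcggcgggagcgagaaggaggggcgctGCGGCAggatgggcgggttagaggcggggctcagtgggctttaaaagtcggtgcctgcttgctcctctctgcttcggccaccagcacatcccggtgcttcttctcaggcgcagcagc
Nap1l5: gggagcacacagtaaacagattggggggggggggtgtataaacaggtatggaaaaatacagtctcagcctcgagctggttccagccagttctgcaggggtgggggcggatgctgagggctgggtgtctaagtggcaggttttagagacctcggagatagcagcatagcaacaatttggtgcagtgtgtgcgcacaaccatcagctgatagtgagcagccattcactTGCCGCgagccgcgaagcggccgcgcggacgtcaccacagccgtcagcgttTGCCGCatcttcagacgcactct
Nnat: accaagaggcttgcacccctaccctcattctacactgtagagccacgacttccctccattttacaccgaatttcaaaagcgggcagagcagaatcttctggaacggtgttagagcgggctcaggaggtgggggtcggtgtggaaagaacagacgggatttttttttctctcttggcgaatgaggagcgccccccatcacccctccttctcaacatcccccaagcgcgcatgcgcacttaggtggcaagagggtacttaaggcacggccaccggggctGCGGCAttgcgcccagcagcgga
Plagl1: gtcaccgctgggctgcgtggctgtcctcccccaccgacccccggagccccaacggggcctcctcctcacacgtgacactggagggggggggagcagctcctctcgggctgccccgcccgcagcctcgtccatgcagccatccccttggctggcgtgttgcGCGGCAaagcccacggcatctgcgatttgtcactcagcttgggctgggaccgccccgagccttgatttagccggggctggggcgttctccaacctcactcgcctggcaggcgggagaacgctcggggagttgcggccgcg
Grb10, upstream start: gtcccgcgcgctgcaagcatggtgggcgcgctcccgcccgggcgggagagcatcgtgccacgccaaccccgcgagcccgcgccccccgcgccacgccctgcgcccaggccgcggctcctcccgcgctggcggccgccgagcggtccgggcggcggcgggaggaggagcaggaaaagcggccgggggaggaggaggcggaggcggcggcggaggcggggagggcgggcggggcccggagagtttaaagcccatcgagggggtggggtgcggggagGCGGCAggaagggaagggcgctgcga
Grb10, downstream start: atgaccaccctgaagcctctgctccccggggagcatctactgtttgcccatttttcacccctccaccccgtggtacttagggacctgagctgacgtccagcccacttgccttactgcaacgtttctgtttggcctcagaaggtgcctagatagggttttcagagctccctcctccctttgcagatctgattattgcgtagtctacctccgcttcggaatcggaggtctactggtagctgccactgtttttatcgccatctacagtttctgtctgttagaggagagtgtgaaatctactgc

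The hexamer stood 2 times in the Mest and Nap1l5 windows, once in those of Nnat and Plagl1, once at the upstream and not at the downstream start of Grb10. Windows of the same length with a match were 11.6% of 32817 RefSeq starts, and 1.53% had 2 or more. The Mest start at chr6:30733256-30733555 and the Peg3 start had no match, and the Mest window at chr6:30737803-30738102, which overlaps the one shown, had 2. The CG dinucleotides numbered 17 each in the Mest, Nap1l5 and Nnat windows, 26 in Plagl1, and 45 and 9 at the upstream and downstream starts of Grb10, against a median of 7 over all windows. Of the 29 imprinted genes tested, 26 had an entry and 10 of these a match at any of their starts, among them 8 of the 16 with an entry that differed between the clones. These counts are per gene, whereas the 11.6% is per start. No share per gene over all genes was taken, so the counts cannot be set against it. These matches are a description of letters, since DNA methylation was not analysed here.

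Most imprinted differences were present before the clones were mixed. In mES cells at 0 h Mest had 7367, 7368 and 7341 normalized counts in WT–mCherry and 330.5, 440.0 and 363 in WT–emiRFP, and H19 19315, 15358 and 16511 against 1847, 1714 and 1575. The clone difference of Mest in a fit of the 36 libraries of both clones was 4.29 ± 0.18 at 0 h, and the difference changed by −1.38 ± 0.23 (SE, adjusted p = 0.0001) by 144 h. H19, Nnat and Plagl1 differed by 3.32 ± 0.22, 2.37 ± 0.23 and 2.59 ± 0.18 at 0 h, and their changes to 144 h did not pass the test (adjusted p = 0.172, 0.889 and 0.748). Grb10 was lower in WT–mCherry mES cells, at −2.35 ± 0.16. It had −3.84 ± 0.16 at 120 h, when WT–emiRFP cells had 21819, 15437 and 23159 normalized counts, and the clone difference became smaller from 120 to 144 h, a change of 0.99 ± 0.21 (SE, adjusted p = 0.011).

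Of the 18 imprinted genes called at 144 h, Zim1 was called in the opposite direction in mES cells, and Igf2, Airn, Gnas and Asb4 were not called there. Zim1 had 164, 103 and 82.7 normalized counts in WT–mCherry and 57.7, 64.8 and 83.5 in WT–emiRFP mES cells, a difference of 0.80 ± 0.22 toward WT–mCherry though 1 library overlapped, and by 144 h its clone difference had changed by −2.95 ± 0.29 (SE, adjusted p = 6.38e-08). Igf2 was near equal in mES cells, at 133, 124 and 143 and 135, 118 and 169.7, and its change to 144 h, −0.74 ± 0.26, passed the test with the block alone (adjusted p = 0.0558 without and 0.00576 with it). Airn, Gnas and Asb4 had 1.39 ± 0.67, 0.16 ± 0.26 and 0.58 ± 0.36 in mES cells. Over the whole list 16 genes were higher and 1 lower in WT–mCherry mES cells, against 9.36% and 12.1% of all genes, with a median of 0.54, and at 120 h 8 were higher and 3 lower, against 0.514% and 0.959%.

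**Figure D2:**
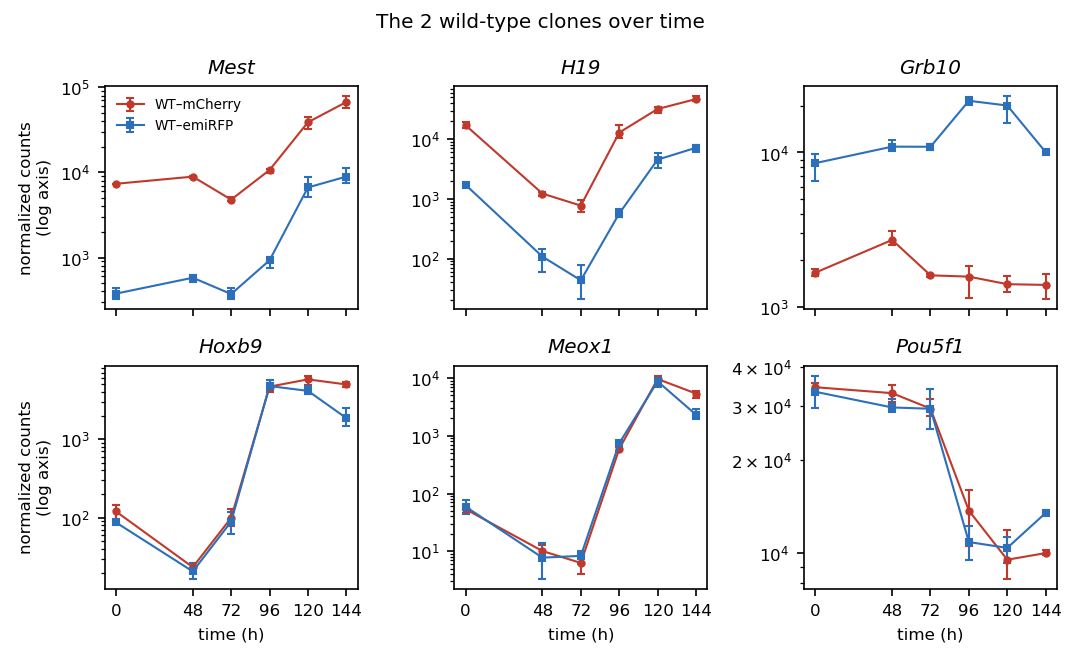
Normalized counts (log axis) of 6 genes against time in h in WT–mCherry and WT–emiRFP cells, as mES cells at 0 h and sorted from WT+WT gastruloids later. Points are means of 3 libraries and bars run from the lowest to the highest. The bars of Mest, H19 and Grb10 do not overlap at any time. Those of Pou5f1 overlap until 120 h and those of Meox1 at every earlier time but 96 h, whereas Hoxb9 is apart at 0 h, 120 h and 144 h.

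Beside p53KO cells the same WT–mCherry clone kept its order to the emiRFP lineage for Mest and H19. WT–mCherry cells of WT+p53KO gastruloids had 21823, 20251 and 19713 normalized counts of Mest and p53KO–emiRFP cells 4368, 4228 and 4144. For H19 the values were 27562, 27271 and 20738 and 1875, 2101 and 1697. Peg3 did not keep this order, with 28083, 27269.9 and 30504 in WT–mCherry and 45012, 44776 and 51446 in p53KO–emiRFP cells. Grb10 had 55496, 51813 and 50756 in p53KO–emiRFP cells and 7327, 1799 and 6469 in the WT–mCherry cells beside them, where the H2bc14 share of the 3 libraries was 16.9, 2.39 and 9.23%.

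Most Hox genes were higher in WT–mCherry. Of 36 tested, 27 were higher and 0 lower, with a median of 1.07, against 13.0% of all genes and a median near 0. The number ranged from 25 to 28 with 1 library left out and from 22 to 26 with 1 replicate left out of all groups, and 30 passed with the block. In bulk RNA, fewer cells of a type and less RNA of these genes per cell cannot be told apart. Genes of paralogue groups 1 to 3 had a median of 0.90 (6 of 8 called), groups 4 to 6 1.18 (10 of 10), groups 7 to 10 1.31 (11 of 12), and groups 11 to 13 −0.32 (0 of 6), where Hoxa11 and Hoxc11 had 0.73 ± 0.62 and 0.78 ± 0.82. Whether these groups of genes differ was not tested. Hoxd4 had the highest change, with 175, 76.9 and 157 normalized counts in WT–mCherry against 47.6, 38.7 and 36.5 in WT–emiRFP, 1.72 ± 0.33 (SE, adjusted p = 0.00211). That call was lost without replicate 3 of all groups (adjusted p = 0.0626). Hoxc6, a gene of the thoracic level, had 1233, 989 and 1337 against 519.6, 358 and 353, 1.53 ± 0.17 (SE, adjusted p = 9.26e-05). Hoxb9, a trunk gene, had 5365, 4997 and 4590.1 against 2462, 1631 and 1483, 1.42 ± 0.17 (SE, adjusted p = 0.000131). The libraries of the clones did not overlap for these 3 genes. Hoxa13, the lowest, had −0.94 ± 0.38 (adjusted p = 0.0914) from counts of at most 17.7.

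**Figure D3:**
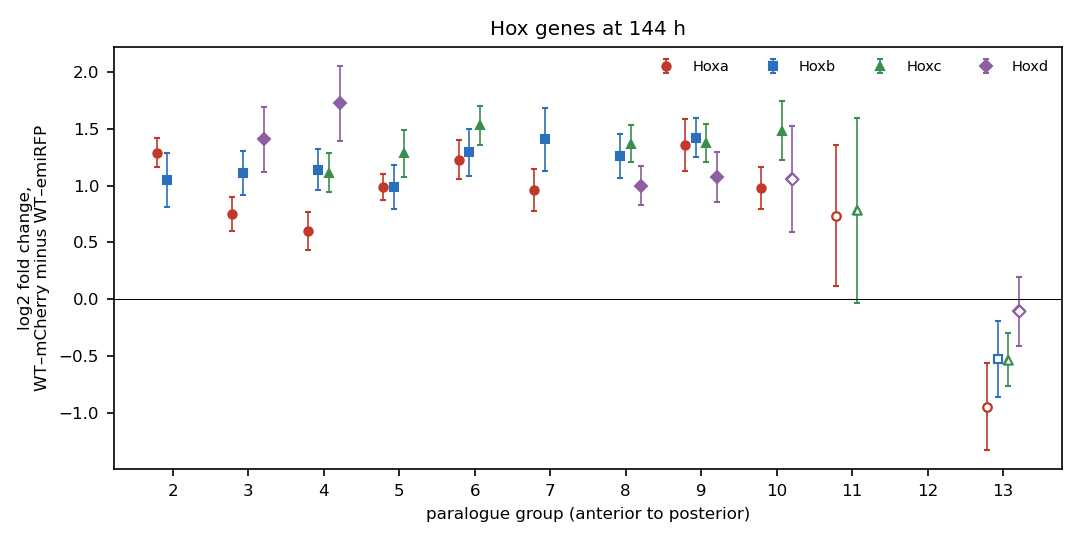
Log2 fold change of the tested Hox genes of paralogue groups 2 to 13 at 144 h, WT–mCherry minus WT–emiRFP, against paralogue group, by cluster. Bars are SE, and open symbols did not pass the test. Groups 2 to 10 lie above 0, whereas the 4 genes of group 13 lie below it.

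The genes around the tail bud were less uniform. Of 15 caudal epiblast genes 6 were higher and 2 lower, against 13.0% and 10.8% of all genes (median 0.31, and 6 higher and 4 lower with the block, against 17.4% and 16.5%). Hes3, a Hes repressor of neural and caudal progenitors, was higher by 1.34 ± 0.25 (SE, adjusted p = 0.00167), Sp8 by 1.33 ± 0.15 (SE, adjusted p = 0.000101) and Cdx4, an activator of Hox genes, by 1.27 ± 0.16 (SE, adjusted p = 0.000169). T, the mesoderm transcription factor brachyury, was higher by 0.67 ± 0.17 (SE, adjusted p = 0.0129). The caudal Fgf ligand gene Fgf17 was lower, at −0.73 ± 0.10 (SE, adjusted p = 0.000253) and Evx1 at −0.71 ± 0.23 (SE, adjusted p = 0.0355). Of 10 presomitic mesoderm genes 5 were higher and 0 lower (median 0.62), among them Pcdh8 at 1.35 ± 0.14 and the Notch ligand genes Dll1 and Dll3 at 0.91 ± 0.10 and 0.67 ± 0.12. Tbx6, the specifier of presomitic mesoderm, and Msgn1 had −0.48 ± 0.23 and −0.32 ± 0.49 and did not pass. Caudal epiblast genes gave 3 to 6 higher (3 without replicate 3 of all groups) and 1 to 3 lower (1 without WT–mCherry replicate 1, among others), and presomitic mesoderm genes gave 2 to 5 higher (2 without replicate 3 of all groups) and 0 to 1 lower, when 1 library or replicate was left out. The calls of T (adjusted p of up to 0.0688) and Evx1 (adjusted p of up to 0.14) were lost with a single library left out. Dll3 (adjusted p of up to 0.0509) did not pass when 1 replicate was left out of all groups.

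Somite genes held the highest median of the lists. Of 16 somite, sclerotome and dermomyotome genes 13 were higher and 0 lower, with a median of 1.22, against 13.0% and 10.8% of all genes (14 higher and 1 lower with the block). The list gave 6 to 14 higher (6 without replicate 3 of all groups), when 1 library or replicate was left out. Meox1, a homeobox gene of the somite, had 5736, 4436 and 6038 normalized counts in WT–mCherry and 2866, 2142 and 1961 in WT–emiRFP, 1.22 ± 0.24 (SE, adjusted p = 0.00267). Meox2 had the highest change, 1.72 ± 0.27 (SE, adjusted p = 0.000566), followed by Pax1, a sclerotome gene, at 1.69 ± 0.29 (SE, adjusted p = 0.00119). Pax3 and Pax7, which mark dermomyotome and dorsal neural tube, were higher by 1.36 ± 0.29 (SE, adjusted p = 0.00439) and 1.46 ± 0.23 (SE, adjusted p = 0.00066). Ripply1 was the lowest, at −0.41 ± 0.16 (adjusted p = 0.0729, and 0.038 with the block). The calls of Meox1 and Pax3 were lost without replicate 3 of all groups (adjusted p = 0.078 and 0.0889).

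Of 7 skeletal myogenesis genes tested 1, Actc1, was higher, against 13.0% of all genes (2 higher and 0 lower with the block). It had 197, 83.9 and 305 against 65.3, 33.5 and 40.9, 2.05 ± 0.43 (SE, adjusted p = 0.00391), a call lost without replicate 3 of all groups (adjusted p = 0.0903). The lowest, Chrna1, had −0.47 ± 0.34. Acta2, the smooth muscle actin gene, was higher by 1.81 ± 0.28 (SE, adjusted p = 0.000557) at 67.7 against 19.1 mean normalized counts.

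Of 16 neural progenitor genes 9 were higher and 1, Pou3f1, lower, at −0.46 ± 0.15, against 13.0% and 10.8% of all genes (median 0.97, and 10 higher and 2 lower with the block). Dbx1, a homeobox gene of interneuron progenitors in the spinal cord, had 1019, 722 and 759 normalized counts in WT–mCherry and 287, 152 and 155 in WT–emiRFP, 2.07 ± 0.33 (SE, adjusted p = 0.000617). Hes5, a Notch target of neural progenitors, was higher by 1.77 ± 0.43 (SE, adjusted p = 0.00928), Pou3f2 by 1.73 ± 0.21 (SE, adjusted p = 0.000113), Sox1 by 1.33 ± 0.13 (SE, adjusted p = 4.76e-05), Irx3 by 1.22 ± 0.20 (SE, adjusted p = 0.000926) and Pax6 by 0.72 ± 0.15 (SE, adjusted p = 0.00383). Sox2, which pluripotent and neural cells share, had −0.11 ± 0.09 (adjusted p = 0.432). The call of Pou3f1 (adjusted p of up to 0.164) was lost with a single library left out. Hes5 (adjusted p of up to 0.0596) did not pass when 1 replicate was left out of all groups.

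Of 22 neuronal differentiation genes 9 were higher and 2 lower, against 13.0% and 10.8% of all genes (median 0.46), with 6 higher without WT–mCherry replicate 3 or without replicate 1 of all groups. Among the higher members were Dcx at 1.65 ± 0.40, Neurog1 at 1.44 ± 0.26 and Ebf3 at 1.46 ± 0.27, while Neurog2, Neurod1 and Elavl3 had 0.80 ± 0.41, 0.23 ± 0.22 and 0.11 ± 0.11 and did not pass (adjusted p = 0.182, 0.499 and 0.503). Dcx (adjusted p of up to 0.0731) did not pass when 1 replicate was left out of all groups. The tubulin and cytoskeleton genes Tubb3 and Stmn2 fell, at −0.43 ± 0.08 and −0.93 ± 0.08 (adjusted p = 0.00114 and 2e-05). The summed counts of the list were 5409 to 6542 in WT–mCherry and 6679 to 7143 in WT–emiRFP, the other way from its median. Among genes outside the lists, Pantr1, a long noncoding RNA beside Pou3f3, was higher by 2.01 ± 0.23 (SE, adjusted p = 9.26e-05), the microRNA host gene Mir124-2hg by 1.83 ± 0.34 (SE, adjusted p = 0.00175) and Chl1, a neural adhesion molecule of the L1 family, by 1.89 ± 0.19 (SE, adjusted p = 5.99e-05).

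Of 11 neural crest genes 5 were higher and 1, Erbb3, lower, at −0.56 ± 0.10, against 13.0% and 10.8% of all genes (median 0.48). Tfap2b rose most, by 1.45 ± 0.16 (SE, adjusted p = 6.99e-05), and Sox9 rose by 1.29 ± 0.12 (SE, adjusted p = 4.64e-05), while Sox10, a marker of migrating crest, had −0.28 ± 0.32 at 29.9 and 37.1 mean normalized counts. Of 9 brain regional genes 4 were higher, led by the midbrain–hindbrain gene En1 at 1.33 ± 0.24, and 1, the forebrain and midbrain gene Otx2, was lower, at −0.66 ± 0.12. Their median was 0.36. Brain regional genes gave 2 to 5 higher (2 without replicate 3 of all groups) and 1 lower, when 1 library or replicate was left out.

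Retinoic acid is the vitamin A derivative that patterns trunk and hindbrain. Of 14 genes of its pathway 8 were higher and 0 lower, against 13.0% and 10.8% of all genes (median 0.80, and 9 higher and 1 lower with the block), and their summed counts were 20954 to 22656 in WT–mCherry and 9307 to 12599 in WT–emiRFP. Aldh1a2, the synthesis enzyme of trunk mesoderm, was higher by 1.03 ± 0.13 (SE, adjusted p = 0.000131). The retinoic acid binding protein genes Crabp1 and Crabp2 were higher by 1.29 ± 0.16 (SE, adjusted p = 0.000129) and 1.31 ± 0.19 (SE, adjusted p = 0.000335), with 8210.4, 7098 and 6362 normalized counts of Crabp2 against 3708, 2919 and 2094. Nr2f1 and Nr2f2, nuclear receptors induced by retinoic acid, were higher by 1.52 ± 0.16 (SE, adjusted p = 6.56e-05) and 1.37 ± 0.19 (SE, adjusted p = 0.000287), and Stra6 and Rarb by 0.96 ± 0.13 and 0.69 ± 0.16. The lowest, the degradation enzyme gene Cyp26c1, had −0.47 ± 0.29. Rarb (adjusted p of up to 0.0649) did not pass when 1 replicate was left out of all groups.

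Other signalling lists were mixed. Of 17 BMP and TGF-beta genes 8 were higher, against 13.0% of all genes, led by the BMP antagonist Grem1 at 1.72 ± 0.38, with Tgfb2, Bmp5 and the BMP targets Id1, Id2 and Id3 among them. Of the same list 2 were lower, against 10.8%, Nodal and Smad7, at −0.50 ± 0.10 and −0.49 ± 0.13. Of 18 Wnt genes 6 were higher, led by Lgr5 at 1.17 ± 0.24 and Wnt5a at 1.15 ± 0.22, and 2 were lower, Rnf43 and Notum, at −0.38 ± 0.13 and −0.37 ± 0.12. The Wnt feedback target Axin2 had 0.12 ± 0.09. Of 12 Notch genes 7 were higher, Dlk1 most, and 1, Jag2, lower, at −0.46 ± 0.11. The 13.0% higher and 10.8% lower of all genes apply to the Wnt, Notch and Hedgehog counts alike. Of 11 Hedgehog genes 5 were higher, led by the co-receptor genes Gas1 and Boc at 1.39 ± 0.23 and 1.27 ± 0.19, and 1 was lower (5 higher and 3 lower with the block), while the target Gli1 had −0.23 ± 0.18. Of 16 FGF and ERK genes 4 were higher, led by Fgf9 at 1.28 ± 0.39, and 2 were lower, Etv5 and Etv4, at −0.32 ± 0.10 and −0.23 ± 0.07, against 13.0% and 10.8% of all genes (8 higher and 3 lower with the block, against 17.4% and 16.5%). BMP and TGF-beta genes gave 7 to 8 higher and 1 to 3 lower (1 without WT–mCherry replicate 1, among others), and Wnt genes gave 3 to 6 higher (3 without replicate 3 of all groups) and 0 to 2 lower (0 without WT–mCherry replicate 1, among others), when 1 library or replicate was left out. Notch genes gave 1 to 7 higher (1 without replicate 3 of all groups) and 0 to 1 lower (0 without replicate 1 of all groups), and FGF and ERK genes gave 2 to 4 higher (2 without replicate 1 of all groups) and 0 to 3 lower (0 without WT–mCherry replicate 1, among others), when 1 library or replicate was left out. The calls of Smad7 (adjusted p of up to 0.0787), Rnf43 (adjusted p of up to 0.184), Notum (adjusted p of up to 0.136), Fgf9 (adjusted p of up to 0.115), Etv4 (adjusted p of up to 0.102) and Etv5 (adjusted p of up to 0.133) were lost with a single library left out. Grem1 (adjusted p of up to 0.0642), Lgr5 (adjusted p of up to 0.0522), Wnt5a (adjusted p of up to 0.0532) and Jag2 (adjusted p of up to 0.0935) did not pass when 1 replicate was left out of all groups.

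Adhesion and matrix genes differed too. Cdh2, N-cadherin of mesoderm and neural tissue, had 7939.6, 6689 and 8784 normalized counts in WT–mCherry and 3734, 2499 and 2875 in WT–emiRFP, 1.36 ± 0.16 (SE, adjusted p = 0.000101). Vim, vimentin of mesenchyme and neural progenitors, had 12214, 11749.6 and 13879.5 against 6803, 5409 and 5123, 1.13 ± 0.12 (SE, adjusted p = 6.3e-05). Cdh1, E-cadherin of epithelia and pluripotent cells, and Epcam were lower, at −0.41 ± 0.13 (SE, adjusted p = 0.0316) and −0.42 ± 0.13 (SE, adjusted p = 0.0267). Both calls were lost without WT–mCherry replicate 1 (adjusted p = 0.129 and 0.104), WT–mCherry replicate 3 or WT–emiRFP replicate 2, that of Cdh1 also without WT–emiRFP replicate 3, and held with the block (adjusted p = 9.76e-05 and 0.000146). Of 25 mesenchymal matrix genes 12 were higher and 2 lower, against 13.0% and 10.8% of all genes (median 0.48). These matrix genes gave 7 to 13 higher (7 without replicate 3 of all groups) and 0 to 2 lower (0 without replicate 2 of all groups), when 1 library or replicate was left out. Col1a2, a chain of type I collagen, rose by 1.99 ± 0.28 (SE, adjusted p = 0.000298) and Col3a1 by 1.30 ± 0.19 (SE, adjusted p = 0.000416). Fn1, fibronectin, fell, at −0.36 ± 0.09 and Matn4 at −0.81 ± 0.23. Sox5 and Sox6, partners of Sox9 in cartilage, were higher by 1.53 ± 0.15 and 1.27 ± 0.16, and were the 2 called of 10 chondrogenic genes (2 higher and 1 lower with the block), of which Matn1 was lowest at −0.64 ± 0.33. The call of Matn4 (adjusted p of up to 0.0971) was lost with a single library left out. Fn1 (adjusted p of up to 0.0776) did not pass when 1 replicate was left out of all groups.

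Clustered protocadherins are surface proteins whose stochastic choice marks single neurons. Of 44 tested 19 were higher and 0 lower, against 13.0% and 10.8% of all genes (median 0.75), 8 of 19 of the beta and 11 of 21 of the gamma cluster, and 0 of 4 of the alpha cluster, whose means in either clone were at most 16.7 normalized counts. Pcdhb17 rose by 1.32 ± 0.28 (SE, adjusted p = 0.00401). The genes of the gamma cluster share their last exons, so counts of single members are uncertain. The number called ranged from 13, without WT–mCherry replicate 3, to 24 with 1 library left out and from 7, without replicate 3, to 18 with 1 replicate left out of all groups. Pcdhb17 (adjusted p of up to 0.0867) did not pass when 1 replicate was left out of all groups.

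**Figure D4:**
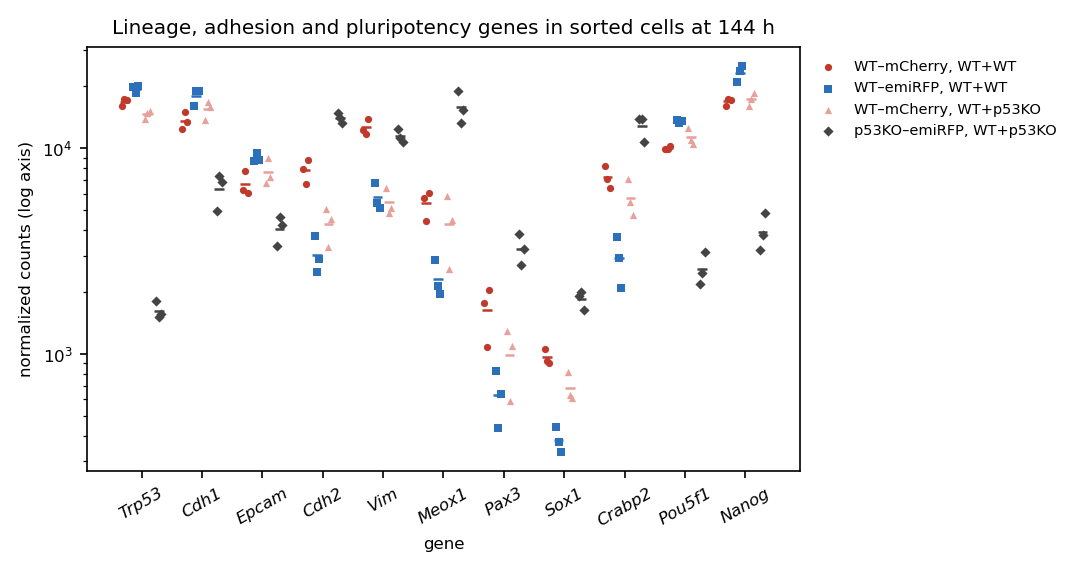
Normalized counts (log axis) of Trp53 and of 10 lineage, adhesion and pluripotency genes in the 4 sorted populations of 144 h. Each point is a library and each bar the mean of 3. Cdh2, Vim, Meox1, Pax3, Sox1 and Crabp2 are higher in WT–mCherry than in WT–emiRFP cells of WT+WT gastruloids, and Pou5f1 and Nanog are lower.

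Pluripotency genes were lower in WT–mCherry. All 18 tested had a negative change, 15 passed the test and 0 were higher, with a median of −0.50, against 10.8% lower of all genes. With single libraries left out 11 to 15 passed, 11 without WT–mCherry replicate 1, with 1 replicate left out of all groups 8 to 16, 8 without replicate 2, and 18 with the block. Pou5f1, which encodes OCT4, had 9849, 9930.2 and 10283 normalized counts in WT–mCherry and 13717, 13304 and 13524 in WT–emiRFP, −0.43 ± 0.10 (SE, adjusted p = 0.00614), and 33545, 34356 and 35597 and 37569, 32844 and 29637 in the mES cells of the clones. Nanog had 16057, 17416 and 17130.2 against 20994, 23807 and 24983, −0.46 ± 0.12 (SE, adjusted p = 0.0105). The libraries of the clones did not overlap for either gene, and both calls were lost without replicate 2 of all groups (adjusted p = 0.0638 and 0.0871). Lefty2 had the lowest value, −0.62 ± 0.14, and Zfp42, Tbx3 and Dppa5a had −0.57 ± 0.12, −0.57 ± 0.11 and −0.53 ± 0.09. Lefty1, the least changed at −0.28 ± 0.12, passed with the block alone. Of 12 primordial germ cell genes 6 were lower and 0 higher (median −0.31), with Itgb3 at −0.69 ± 0.11, Prdm14 at −0.61 ± 0.12 and Dppa3 at −0.45 ± 0.11, whereas Prdm1, a specifier of the germ line, had −0.01 ± 0.12 and Rhox9, the highest, 0.04 ± 0.12. Prdm14, Tfap2c and Dppa3 are also expressed in pluripotent cells. Dppa3 (adjusted p of up to 0.0542) and Tfap2c (adjusted p of up to 0.0834) did not pass when 1 replicate was left out of all groups.

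Of 19 cardiac genes 6 were lower and 1, Mef2c, higher by 0.53 ± 0.17, against 10.8% and 13.0% of all genes (median −0.32). Cardiac genes gave 0 to 1 higher (0 without WT–mCherry replicate 1, among others) and 2 to 7 lower (2 without replicate 3 of all groups), when 1 library or replicate was left out. Hand1, a transcription factor of heart and extraembryonic mesoderm, had 42.5, 48.9 and 44.3 normalized counts in WT–mCherry and 132, 121 and 141 in WT–emiRFP, −1.53 ± 0.40 (SE, adjusted p = 0.0126). The call was lost without WT–mCherry replicate 1 (adjusted p = 0.0513). With 1 library or replicate left out its adjusted p was up to 0.0963. Myl4, an atrial myosin light chain, was lower, at −1.18 ± 0.16 (SE, adjusted p = 0.000224) and the titin gene Ttn at −1.02 ± 0.25 (SE, adjusted p = 0.00878). Nkx2-5 had −0.56 ± 0.30 at 19.5 and 29.3 mean normalized counts. The call of Mef2c (adjusted p of up to 0.145) was lost with a single library left out. Ttn (adjusted p of up to 0.0884) did not pass when 1 replicate was left out of all groups.

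Of 12 surface ectoderm and epithelium genes 4 were lower and 0 higher, against 10.8% and 13.0% of all genes (median −0.38), Grhl3 and Sfn most with −0.50 ± 0.06 and −0.50 ± 0.16, with 1 higher and 6 lower with the block, against 17.4% and 16.5%. The highest, Trp63, had 0.70 ± 0.32. Of 18 endoderm genes 3 were lower, Vil1, Cldn4 and Epcam, and 0 higher, against the same shares (median −0.16), and 7 were lower with the block. The endoderm transcription factor genes Foxa2 and Sox17 had 0.41 ± 0.50 and 0.24 ± 0.39. Endothelium gave 3 higher and 2 lower of 19, against 13.0% and 10.8% of all genes (4 higher and 5 lower with the block), with Fli1 at 1.15 ± 0.27 and Eng at −0.61 ± 0.08. Of 11 blood genes tested 0 passed in either direction in edgeR, where 1 was higher and 2 lower with the block. Intermediate mesoderm genes gave 2 higher and 0 lower of 10 (4 higher and 0 lower with the block), led by Pax2 at 1.11 ± 0.26, with Pax8 lowest at −0.46 ± 0.22. Lateral plate genes gave 2 higher and 1 lower of 13, against 13.0% and 10.8% of all genes, with Prrx1 at 1.41 ± 0.27 and Tbx4 at −0.68 ± 0.16. Of 4 notochord genes 0 passed (0 higher and 1 lower with the block), Nog at 0.60 ± 0.26 and Shh at −0.80 ± 1.04 being the extremes. Surface ectoderm genes gave 1 to 5 lower (1 without WT–mCherry replicate 1, among others), and endoderm genes gave 0 to 4 lower (0 without WT–mCherry replicate 1, among others), when 1 library or replicate was left out. Endothelium genes gave 0 to 2 higher (0 without replicate 3 of all groups, among others) and 2 to 4 lower, and lateral plate genes gave 1 to 2 higher (1 without WT–mCherry replicate 1, among others) and 1 lower, when 1 library or replicate was left out. Intermediate mesoderm genes gave 1 to 2 higher (1 without replicate 3 of all groups), when 1 library or replicate was left out. The calls of Sfn (adjusted p of up to 0.123), Vil1 (adjusted p of up to 0.0993), Cldn4 (adjusted p of up to 0.16) and Epcam (adjusted p of up to 0.105) were lost with a single library left out. Fli1 (adjusted p of up to 0.153) and Pax2 (adjusted p of up to 0.0737) did not pass when 1 replicate was left out of all groups.

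The stress and metabolic lists held more lower than higher calls in WT–mCherry. Of 18 integrated stress response genes 11 were lower and 2 higher, against 10.8% and 13.0% of all genes (median −0.22). Nupr1, a stress-induced nuclear protein gene, had 592, 771 and 631 normalized counts in WT–mCherry and 1383, 1650.2 and 1606 in WT–emiRFP, −1.22 ± 0.12 (SE, adjusted p = 5.99e-05). Trib3 was lower, at −0.76 ± 0.07 (SE, adjusted p = 4.64e-05), Ddit3, which encodes CHOP, at −0.55 ± 0.17 and Atf4, the transcription factor of the response, at −0.38 ± 0.06. The higher members were Slc7a11 and Vldlr at 0.64 ± 0.15 and 0.40 ± 0.08. These genes were lower in WT–mCherry mES cells too, 15 of 18 at 0 h, against 12.1% of all genes, with a median of −0.55, while at 120 h 1 was lower, against 0.959%, with a median of 0.01. Of 28 hypoxia and glycolysis genes 12 were lower and 0 higher (median −0.19, and 0 higher and 18 lower with the block), from Pgk1 at −0.17 ± 0.06 to Pfkp, a phosphofructokinase, at −0.68 ± 0.12. The stress response list gave 1 to 2 higher (1 without replicate 3 of all groups) and 7 to 11 lower (7 without replicate 1 of all groups), and hypoxia and glycolysis genes gave 2 to 14 lower (2 without replicate 1 of all groups), when 1 library or replicate was left out. Ldha, lactate dehydrogenase, had 0.07 ± 0.06. The calls of Ddit3 (adjusted p of up to 0.128) and Pgk1 (adjusted p of up to 0.169) were lost with a single library left out. Vldlr (adjusted p of up to 0.0755) did not pass when 1 replicate was left out of all groups.

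Of 28 genes listed as p53 targets, Trp53 among them, 10 were lower and 1 higher (median −0.19, and 1 higher and 14 lower with the block), against 10.8% and 13.0% of all genes. The targets gave 1 higher and 2 to 8 lower (2 without WT–mCherry replicate 1, among others), when 1 library or replicate was left out. Gdf15 was the lowest at −0.98 ± 0.13 and Mdm2, which encodes the ligase of p53, had −0.27 ± 0.04, while the cell cycle inhibitor gene Cdkn1a had −0.17 ± 0.10 and passed with the block alone (adjusted p = 0.0191). The gene that rose, Ccnd2, encodes a D-type cyclin of many progenitors and had 16104, 13938 and 14292 normalized counts against 7277, 5477 and 5151, 1.31 ± 0.16 (SE, adjusted p = 0.000131). In mES cells the list had stood the other way, with 12 of 28 higher and 1 lower in WT–mCherry, against 9.36% and 12.1% of all genes, and 12 of its genes moved against WT–mCherry between 0 and 144 h, against 6.04%.

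Few proliferation genes passed the test without the block. Of 24 G2/M genes 0 passed the edgeR test, against 13.0% and 10.8% of all genes (0 higher and 3 lower with the block, against 17.4% and 16.5%), with changes from −0.18 ± 0.07 for Anln to 0.12 ± 0.06 for Cenpe. Of 23 G1/S genes 2 were higher, Ccne2 and Rrm1, by 0.38 ± 0.12 and 0.24 ± 0.07, and 0 lower (6 higher and 2 lower with the block), E2f1 being lowest at −0.14 ± 0.06. Of 6 CDK inhibitors Cdkn1c and Cdkn1b were higher, by 0.98 ± 0.15 and 0.42 ± 0.07, and Cdkn2a and Cdkn2b lower, at −0.74 ± 0.09 and −0.49 ± 0.15. Of 24 ribosome biogenesis and Myc genes 2 were higher and 2 lower, against 13.0% and 10.8% of all genes. Mycl and Myc were higher by 0.76 ± 0.12 and 0.70 ± 0.11, and Rrp9 and Srm lower, at −0.35 ± 0.08 and −0.16 ± 0.05. Cytosolic ribosomal protein genes had a median of −0.10, 80 of 84 with a negative change, and 3 were lower without the block and 19 with it. The same shares of all genes apply to the other counts of proliferation and growth genes. Of 17 apoptosis genes 4 were higher and 2 lower, against 13.0% and 10.8% of all genes, with the survival gene Bcl2 at 1.34 ± 0.15 and Bid at −0.30 ± 0.07. G1/S genes gave 0 to 3 higher (0 without WT–mCherry replicate 3, among others), and CDK inhibitors gave 2 higher and 1 to 2 lower (1 without WT–mCherry replicate 3, among others), when 1 library or replicate was left out. Ribosome biogenesis and Myc genes gave 2 higher and 1 to 2 lower (1 without WT–mCherry replicate 1, among others), and ribosomal protein genes gave 0 to 6 lower (0 without WT–mCherry replicate 3, among others), when 1 library or replicate was left out. Apoptosis genes gave 2 to 5 higher (2 without replicate 1 of all groups) and 0 to 2 lower (0 without replicate 3 of all groups), when 1 library or replicate was left out. The calls of Ccne2 (adjusted p of up to 0.166), Rrm1 (adjusted p of up to 0.0964), Cdkn2b (adjusted p of up to 0.121) and Srm (adjusted p of up to 0.116) were lost with a single library left out. Bid (adjusted p of up to 0.0958) did not pass when 1 replicate was left out of all groups.

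Of 16 antigen presentation and interferon genes 3 were lower and 0 higher, against 10.8% and 13.0% of all genes (1 higher and 7 lower with the block), Tapbp at −0.27 ± 0.07 the lowest of them. Of 19 cholesterol synthesis genes 2 were higher and 4 lower, against 13.0% and 10.8% of all genes (3 higher and 7 lower with the block, against 17.4% and 16.5%), from Nsdhl at 0.20 ± 0.07 to Mvd at −0.26 ± 0.07. Of 18 immediate early genes 1, Socs3, was higher by 0.46 ± 0.12 and 1, Nr4a1, lower, at −0.53 ± 0.08, and with the block 2 were higher and 10 lower. Mitochondrially encoded transcripts made up 0.727 to 1.26% of counts in WT–mCherry and 0.639 to 1.15% in WT–emiRFP, and 0 of 12 passed (1 with the block). Of 7 sex chromosome genes 4 were lower and 0 higher (1 higher and 4 lower with the block), from Eif2s3y at −0.19 ± 0.07 to Xist at −0.87 ± 0.22, with Xist at 78.2 against 142 mean normalized counts, and the highest, Kdm5d, had 0.90 ± 0.33. Antigen presentation genes gave 0 to 1 higher and 0 to 5 lower (0 without replicate 3 of all groups, among others), and cholesterol synthesis genes gave 0 to 2 higher (0 without replicate 2 of all groups, among others) and 0 to 7 lower (0 without WT–mCherry replicate 1, among others), when 1 library or replicate was left out. Immediate early genes gave 0 to 2 higher (0 without WT–mCherry replicate 1, among others) and 1 to 2 lower, and sex chromosome genes gave 0 to 1 higher and 0 to 3 lower (0 without WT–emiRFP replicate 3, among others), when 1 library or replicate was left out. The calls of Tapbp (adjusted p of up to 0.0666), Nsdhl (adjusted p of up to 0.168), Mvd (adjusted p of up to 0.0892), Socs3 (adjusted p of up to 0.0528), Eif2s3y (adjusted p of up to 0.198) and Xist (adjusted p of up to 0.0593) were lost with a single library left out.

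Further genes that were lowest in WT–mCherry belong to no list. Aass, a lysine degradation enzyme gene, had 105, 151 and 112 normalized counts against 400.2, 405 and 388, −1.69 ± 0.20 (SE, adjusted p = 0.000103). Stag3, a cohesin subunit gene of the germ line, had 2845, 2573 and 2423 against 5856, 6296 and 6021, −1.21 ± 0.07 (SE, adjusted p = 7.2e-07). Eppk1, an epithelial cytolinker gene, Elf5, an ETS factor of trophoblast and epithelia, and P2rx7, an ATP-gated channel gene, were lower, at −1.48 ± 0.26 (SE, adjusted p = 0.00127), −1.28 ± 0.18 (SE, adjusted p = 0.000263) and −1.25 ± 0.13 (SE, adjusted p = 5.99e-05). Abcc6, an ATP-binding cassette transporter gene, was among the highest in WT–mCherry, by 1.84 ± 0.15 (SE, adjusted p = 1.46e-05). The clone differences of Aass and Stag3 were −1.82 ± 0.17 and −1.62 ± 0.15 in mES cells, and did not differ detectably between 0 and 144 h (adjusted p = 0.797 and 0.204). For these 6 genes no library of one clone overlapped the other.

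**Figure D5:**
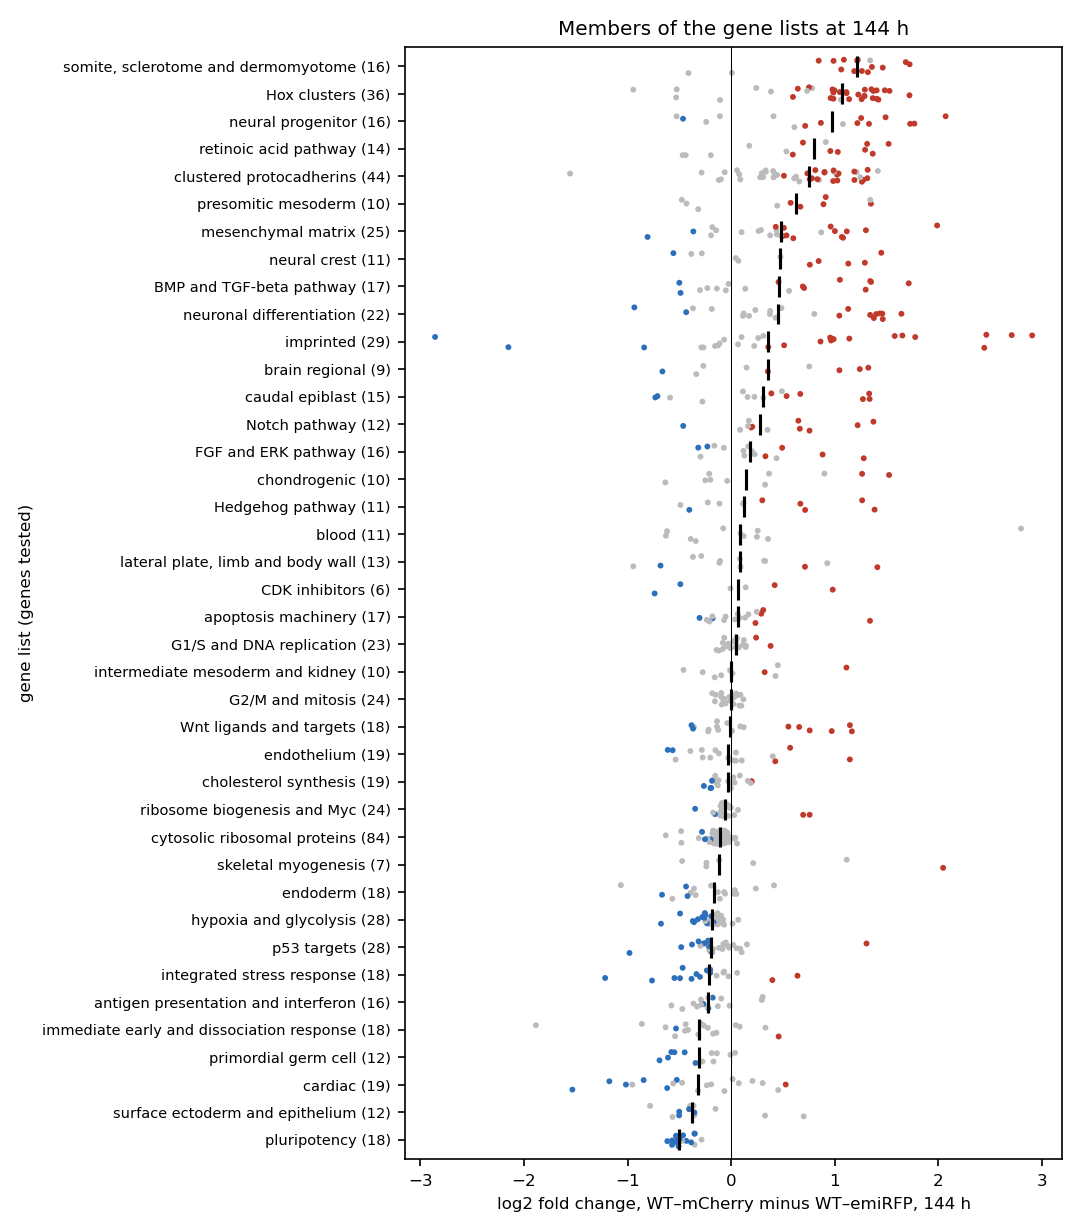
Log2 fold change at 144 h, WT–mCherry minus WT–emiRFP, of each tested member of 40 gene lists. Red points passed the test upward, blue points downward, grey points did not pass, and black bars are list medians. Somite and Hox genes stand highest and pluripotency genes lowest.

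Against the mES cells, 2950 of 20443 genes (14.4%) had a clone difference at 144 h that differed from that at 0 h, 1715 toward WT–mCherry (8.39%) and 1235 away from it (6.04%). With TMM scaling, 68.2% of the calls were toward WT–mCherry in place of 58.1%. Of the 36-library fit's 4380 genes that differed at 0 h, 1913 were higher in WT–mCherry (9.36%) and 2467 lower (12.1%). Among 19198 genes tested at both times, 1132 were called with the same sign at 0 and 144 h and 307 with opposite signs. WT–mCherry mES replicate 2 stood apart, with 7.32, 204 and 8.27 normalized counts of the caudal gene Nkx1-2 in the 3 replicates, and without it 2629 genes were called.

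The largest moves toward WT–mCherry were of H2bc14, Hes3, Nsg2, Serpinf1 and Calcrl. Hes3 had 19.9, 19.9 and 16.5 normalized counts in WT–mCherry and 57.7, 30.3 and 45.8 in WT–emiRFP mES cells, and 706, 540.5 and 590.4 and 346, 193 and 186 at 144 h, so that its order turned over, a change of 2.58 ± 0.35 (SE, adjusted p = 1.05e-05). Nsg2, a neuronal endosomal protein gene, had 35.5, 34 and 60.0 against 115, 99.3 and 102 at 0 h and 475, 453 and 446 against 264, 221 and 220.0 at 144 h, a change of 2.33 ± 0.23 (SE, adjusted p = 6.77e-08). Serpinf1, a secreted serpin gene, and Calcrl, a receptor subunit gene for adrenomedullin, changed by 2.06 ± 0.25 (SE, adjusted p = 1.54e-06) and 1.96 ± 0.51 (SE, adjusted p = 0.00806). H2bc14 (adjusted p of up to 0.0714) and Calcrl (adjusted p of up to 0.115) did not pass when 1 replicate was left out of all groups. The largest moves away in this ranking, which Hand1 at −2.27 did not enter, were of Aplnr, Nkx1-2, Zim1, Shisal1 and Grm6. Those of Aplnr and Nkx1-2, −7.92 ± 1.84 (SE, adjusted p = 0.00364) and −4.60 ± 1.01 (SE, adjusted p = 0.00206), were not independent of WT–mCherry mES replicate 2. Aplnr had 0, 71.6 and 0 normalized counts in WT–mCherry and 0 in all 3 WT–emiRFP mES libraries, so its fitted value depends on the prior count. Without that replicate they were −0.19 and −1.24 (adjusted p = 1 and 0.317). Shisal1 and Grm6 changed by −2.02 ± 0.34 (SE, adjusted p = 0.000146) and −1.85 ± 0.43 (SE, adjusted p = 0.00322), and the call of Grm6 was lost without replicate 1 of all groups (adjusted p = 0.0582).

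Among the lineage genes, Cdh2, Vim, Meox1, Hoxb9, Crabp2 and Sox1 gained on the WT–mCherry side from 0 to 144 h, by 1.15 ± 0.28, 0.89 ± 0.20, 1.37 ± 0.32, 0.93 ± 0.30, 1.11 ± 0.24 and 0.82 ± 0.23 (SE, adjusted p = 0.00517, 0.00294, 0.0035, 0.0365, 0.00164 and 0.0133). Without replicate 3 of all groups the call of Cdh2 was lost (adjusted p = 0.132), without replicate 1 that of Meox1 (adjusted p = 0.0922), without replicate 2 or 3 that of Sox1 (adjusted p = 0.194 and 0.117), and that of Hoxb9 without any 1 of the 3 (adjusted p of up to 0.16). Crabp1 had 0.86 ± 0.22 (SE, adjusted p = 0.00665), lost without replicate 1 or 2 (adjusted p = 0.106 and 0.0697). Nanog moved the other way, at −0.53 ± 0.12 (SE, adjusted p = 0.00198). The change of Pou5f1, −0.48 ± 0.18, passed with the block alone (adjusted p = 0.00203). Of 36 Hox genes 1, Hoxb9, was called toward WT–mCherry and 2 away, against 8.39% and 6.04% of all genes. The Hox median was 0.56 at 0 h (1 higher and 0 lower, against 9.36% and 12.1% of all genes) and 0.44 at 120 h. Presomitic mesoderm genes had medians of 0.61 and 0.70 at these times, and retinoic acid pathway genes 0.41 and 0.10. Somite genes had 0.12 at both.

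From 120 to 144 h 378 genes changed their clone difference (1.85%), 360 toward WT–mCherry (1.76%) and 18 away from it (0.0880%). The number was 15 when only the 12 compared libraries were fitted, 1330 with the block, and 0 without replicate 3 of all groups. In that last setting edgeR gave 1372 of 20514 genes a p below 0.05 before adjustment, against 2094 of 20443 with all libraries. At 120 h itself 301 genes differed between the clones, 105 higher in WT–mCherry (0.514%) and 196 lower (0.959%). Hoxb9 had 6424, 4871 and 6056 normalized counts in WT–mCherry and 4744, 3712 and 3929.5 in WT–emiRFP cells at 120 h, and its clone difference grew by 0.94 ± 0.23 (SE, adjusted p = 0.0253). For Meox1 the values at 120 h were 10572, 7396 and 10964 and 9789, 7067 and 9455, which overlapped, and the difference grew by 1.08 ± 0.20 (SE, adjusted p = 0.00508). The mean of Hoxb9 was 5784 at 120 h and 4984 at 144 h in WT–mCherry, and 4128 and 1859 in WT–emiRFP. For Meox1 the means were 9644 and 5403 in WT–mCherry, and 8770.1 and 2323 in WT–emiRFP, so both genes had lower means at 144 h in both clones. Vim, Cdh2, Crabp1, Nr2f1, Pax3, Col1a2, Ccnd2, Cdkn1c and Pantr1 grew as well, by 1.08 ± 0.20, 1.00 ± 0.23, 0.80 ± 0.21, 1.44 ± 0.26, 1.25 ± 0.30, 1.34 ± 0.32, 0.78 ± 0.21, 0.69 ± 0.18 and 2.07 ± 0.41 (SE). Without replicate 3 of all groups the calls of these 11 genes, Hoxb9 and Meox1 included, and that of Grb10 were lost, and those of all but Vim were also lost without replicate 1 and with the 12 compared libraries alone.

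Values of the other mosaic at 144 h are given side by side, since both share the fit. Meox1 had 5847, 2571 and 4476 normalized counts in WT–mCherry beside p53KO cells and 18957, 13212 and 15232 in p53KO–emiRFP cells. Hoxb9 had 4018, 2619.6 and 3132 and 11988, 10549 and 10004, and Pou5f1 12507, 10919 and 10488 and 2191, 2484 and 3109. In that mosaic it was the emiRFP-marked cells that had more Meox1 and Hoxb9 and less Pou5f1, the reverse of WT+WT gastruloids. Those cells were also p53KO, so genotype and clone cannot be told apart there. The H2bc14 share of the 3 WT–mCherry libraries was 16.9, 2.39 and 9.23%, and their Meox1 and Hoxb9 values ranked in the same order.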

How the data were processed

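Bulk RNA of FACS-sorted cells was sequenced from stranded polyA libraries. Per the labels and the study's methods, the authors trimmed reads with Trim Galore (0.6.7), aligned them with STAR (2.7.11b) to GRCm38.p6 and deposited a table of raw counts of uniquely mapped reads per gene symbol. The strand column used is not given in the sources used here, so antisense and overlapping genes are uncertain. The comparison, gene lists and members were chosen with earlier results of these data known.

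Counts were tested with edgeR's quasi-likelihood test (edgeR 4.0.16, R 4.3.3) with median-of-ratios size factors over the 69 libraries, edgeR's low-count filter and Benjamini-Hochberg adjustment at 0.05. The 144 h comparison used the 12 libraries of that time, and changes over time the 36 libraries of both wild-type clones. Replicates were independent experiments, 3 per group, and an exact test of 3 against 3 cannot go below 0.1. Deviations from the group means of same-numbered libraries of the clones correlated at 0.317, 0.547 and 0.531 at 144 h (14346 genes of at least 50 mean counts), so the numbers were taken to pair the samples there, and counts of calls that the replicate block moves by over 1.5 times are given with it. At 0 h the correlations were 0.27, 0.068 and 0.154. Libraries held about 47397800 to 63367200 counts at 144 h.

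Named genes were the 12 highest and 12 lowest called changes whose log2 CPM averaged 1 or more, with one direction in the 3 pairs, the 5 highest and 5 lowest changes against 0 h, the extremes of 44 gene lists, and Trp53, Cdh1, Cdh2, Epcam and Vim, leaving out unnamed gene models. Other list members were described with their values seen. Alternatives were TMM, DESeq2 1.42.0, no filter, the compared libraries alone, the replicate block and each replicate or library left out. The test was checked on simulated data. Values of a few list members are not reported here.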

Additional observations from a re-analysis of the deposited data

Results flagged for a closer look

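The difference between the clones itself differed between 144 h and the mES cells of 0 h for 2950 genes, and between 144 h and 120 h for 378, by edgeR's quasi-likelihood test of the interaction of clone and time. Values are the log2 difference WT–mCherry minus WT–emiRFP at 144 h minus that at the earlier time.

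Against 0 h, lineage and other genes that moved toward WT–mCherry were Hes3 at 2.58, Nsg2 at 2.33, Serpinf1 at 2.06, Calcrl at 1.96, Meox1 at 1.37, Cdh2 at 1.15, Ccnd2 at 1.14, Crabp2 at 1.11, Hoxb9 at 0.93, Vim at 0.89, Crabp1 at 0.86, Sox1 at 0.82, Nupr1 at 0.71 and Cdkn1c at 0.69. The histone genes H2bc14 and H2bc7 moved the same way, at 4.03 and 1.81, with H2bc14 in WT–mCherry at 2.12, 0.191 and 1.70% of WT–emiRFP at 144 h. The genes that moved away from WT–mCherry were Aplnr at −7.92, Nkx1-2 at −4.60, Zim1 at −2.95, Hand1 at −2.27, Shisal1 at −2.02, Grm6 at −1.85, Hoxa13 at −1.80, Ttn at −1.70, Zdbf2 at −1.43, Mest at −1.38, Eppk1 at −1.12, Abcc6 at −1.12, Stmn2 at −0.63, Nanog at −0.53 and Cdh1 at −0.47. The value of Aplnr was −0.19, that of Nkx1-2 −1.24 and that of Hoxa13 −1.46 (adjusted p = 1, 0.317 and 0.078) without WT–mCherry mES replicate 2. With 1 replicate of all groups left out, the calls of H2bc14, Calcrl, H2bc7, Meox1, Cdh2, Hoxb9, Crabp1, Sox1, Nupr1, Cdkn1c, Grm6, Zdbf2, Eppk1, Abcc6 and Cdh1 were lost as well, with adjusted p of up to 0.461 (for H2bc7).

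Against 120 h, the clone differences of Pantr1 at 2.07, Nr2f1 at 1.44, Col1a2 at 1.34, Pax3 at 1.25, Hes3 at 1.09, Vim at 1.08, Meox1 at 1.08, Cdh2 at 1.00, Grb10 at 0.99, Hoxb9 at 0.94, Crabp1 at 0.80, Ccnd2 at 0.78, Nsg2 at 0.77 and Cdkn1c at 0.69 changed. Of these Grb10 was lower in WT–mCherry at both times and the positive value means that the clones came closer. Without replicate 3 of all groups each of these calls was lost, those of Hes3 and Nsg2 with adjusted p = 0.309 and 0.420.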

How the results depend on the processing

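Of the 4620 genes that differed between the clones at 144 h, 688 had an absolute log2 fold change of at least 1, 538 higher and 150 lower. The count was 4869 with DESeq2, 4539 with TMM scaling, where 63.3% of calls were higher in WT–mCherry in place of 54.6%, and 6578 with the replicate block, 3377 higher and 3201 lower. With replicates left out it ranged from 2176 to 4657, the higher genes from 1266 to 2511 and the lower from 813 to 2146. Subtracting the emiRFP RNA estimated from H2bc14, an alternative chosen after seeing the data, gave 4743, 2394 higher and 2349 lower. For the change against 0 h, an absolute value of at least 1 left 696 genes, 241 toward WT–mCherry and 455 away, the compared libraries alone gave 1428, 841 and 587, and the block 5177, 2819 and 2358. With replicates left out these counts ranged from 1190 to 2629, 724 to 1518 and 424 to 1111, where leaving out WT–mCherry mES replicate 2 was chosen after seeing the data. For the change against 120 h, an absolute value of at least 1 left 133 genes, 129 toward WT–mCherry and 4 away, no low-count filter gave 700, 644 and 56, the compared libraries alone 15, 14 and 1, and the block 1330, 1071 and 259. DESeq2 called 42 away from WT–mCherry. With replicates left out the counts ranged from 0 to 175, 0 to 169 and 0 to 6. Without replicate 3 edgeR called 0, and 1372 of 20514 genes had a p below 0.05 before adjustment. Some alternatives take fewer libraries or genes, and the cause of these movements was not tested. No value that had passed the test changed its direction under these alternatives. Calls of genes with small changes, such as Trp53, Cdh1 and Epcam, depended on single libraries, and genes with few counts, such as Hoxa13, had wide errors.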
